A study of Danio rerio with 3 samples.

Results

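Apolipoproteins and the transfer protein that loads lipid onto them were described in whole zebrafish embryos exposed to Aroclor 1254, a commercial mixture of polychlorinated biphenyls. The set holds 10 genes named by symbol, out of 14462 gene symbols in the array's probe table. Of the 10, 7 had a probe in that table (11 probes) and 5 were measured in all samples: apobb.1, apoa1a, apoa4b.1, apoea and apoeb. The probes of apoa1b and apoc1 had no value in any sample. No probe carried the symbols or the NCBI gene IDs of apoba, apoa2 and mttp, which are not analysed here. The genes were put forward with results of these samples known, among them the ratio of apobb.1, and the pairing of array rows with genes also drew on the ratios. Their values below are therefore a description of this contrast.

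Exposure to 71.9 mg/L lasted 24 h from 24 hpf (hours post fertilization), and embryos were collected at 48 hpf. Control embryos of the same age stayed in fish medium at 28.5 °C. The 3 samples are biological replicates by their labels, and each compares the total RNA of exposed and control embryos on a two-channel array, so 1 log ratio per array row carries the contrast. The labels name no strain or genotype, and do not say how many embryos were pooled or whether replicates came from separate clutches, so the spread given is that between these 3 samples.

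All ratios are on the log2 scale, which was inferred from their range, and carry the sign of the deposited values, because no source used here says which condition is the numerator. The gene cyp1a, a monooxygenase known to be induced through the aryl hydrocarbon receptor by dioxin-like biphenyls, had the highest mean ratio of the 5904 genes measured in all samples. Its log2 ratio was 7.07, 8.61 and 8.02 in replicates 1, 2 and 3. That averages 2 rows that differed widely in size, with means of 5.32 and 10.48, and another cyp1a probe had no value. The tissue label could not be checked against marker levels, since ratios and no signal levels were used. For the same reason, levels of different genes were not compared.

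Until it feeds, a zebrafish embryo lives on yolk. The yolk syncytial layer, a thin layer around the yolk, takes up yolk lipid and packages it with apolipoprotein B into large lipoproteins, and microsomal triglyceride transfer protein (the product of mttp) is needed for that loading. These particles reach the tissues through the circulation, where apolipoproteins E and C steer their uptake and lipolysis. Apolipoprotein A-I forms high-density lipoprotein, which carries cholesterol and phospholipid. Liver and intestine take over lipoprotein production later.

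The 2 members with 1 sign in all 3 samples went opposite ways: apobb.1 was negative and apoa1a positive, each by more than 1.5-fold in every replicate. The other measured members, apoa4b.1, apoea and apoeb, changed sign between replicates. Of the 5904 genes, 42.8% kept 1 sign across the samples (19.7% positive and 23.1% negative), and 5.34% reached 1.5-fold in 1 direction in every sample. In the limma fit over all genes, 0 of the 5 measured members had an adjusted p under 0.05, where 0.0169% of genes, cyp1a alone, were called. An unadjusted limma p under 0.05 was found for 2 members, and for 16.1% of all genes (951 of 5904). Fitted by row, 0 of the members' 9 measured rows passed, against 0.0686% of all rows measured in every sample. At an unadjusted limma p under 0.05 there were 3 of the 9, against 1923 of all 10200 rows. With the ordinary statistic 0 of the 5904 genes were called, so the members' count of 0 there says nothing about them. By that statistic 2 members had an unadjusted p under 0.05, as did 605 of all genes. The count of members in limma became 1, for apobb.1, after quantile normalization of genes and with array weights. Under these settings 46 and 40 of the 5904 genes were called. Since the members were chosen on this contrast, nothing is read from these shares.

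Apolipoprotein B is the non-exchangeable structural protein of the large, triglyceride-rich lipoproteins, and apobb.1 is 1 of several zebrafish genes for it. The log2 ratio of apobb.1, averaged over 2 array rows, was -1.80, -1.48 and -1.67 in replicates 1, 2 and 3. All replicates were negative and lay close together in the deposited values. The mean was -1.65 ± 0.16 (SD, n = 3), a 3.13-fold difference between exposed and control embryos. Only 27 of the 5904 genes had a lower mean, and 10.4% had a smaller SD. The small SD depended on the processing. It was 0.59 with samples scaled to equal spread and 0.5 after quantile normalization of genes. With quantile normalization of rows before averaging it was 0.44.

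Both rows of apobb.1 were negative in every sample, but they differed in size. The first row, listed under a GenBank cDNA, gave log2 ratios of -2.31, -1.75 and -1.92 in replicates 1, 2 and 3. The second, listed under the RefSeq transcript, gave -1.28, -1.20 and -1.41. Neither row's values overlapped those of the other. Their means of -1.99 ± 0.28 and -1.30 ± 0.11 (SD, n = 3 each) were 0.70 apart, and 8.78% of the 1185 genes with 2 measured rows showed a gap at least as wide. With the median of the surrounding spots subtracted from each row, the gap shrank to 0.29. Probe sequences were not used here, so signal from the related gene apobb.2, which had no probe of its own in the table, could not be told apart from that of apobb.1.

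Apolipoprotein A-I is the main protein of high-density lipoprotein. Zebrafish have a pair of genes for it, and only apoa1a gave values. Its single row had log2 ratios of 1.35, 1.14 and 0.96 in replicates 1, 2 and 3. All were positive, and the range was narrow. The mean was 1.15 ± 0.20 (SD, n = 3), or 2.22-fold. A higher mean was found in 1.96% of genes, and a smaller SD in 15% of them. The paralog apoa1b had 1 probe, without a value.

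Within each sample the log2 ratio of apoa1a exceeded that of apobb.1 by 3.15, 2.62 and 2.63 in replicates 1, 2 and 3. The mean difference was 2.80 ± 0.30 (SD, n = 3), so the 2 genes lay far apart in every replicate. This pair was chosen after its values were seen. In bulk RNA of whole embryos, a different share of cells that make a transcript and a different amount of transcript per cell cannot be told apart.

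**Figure D1:**
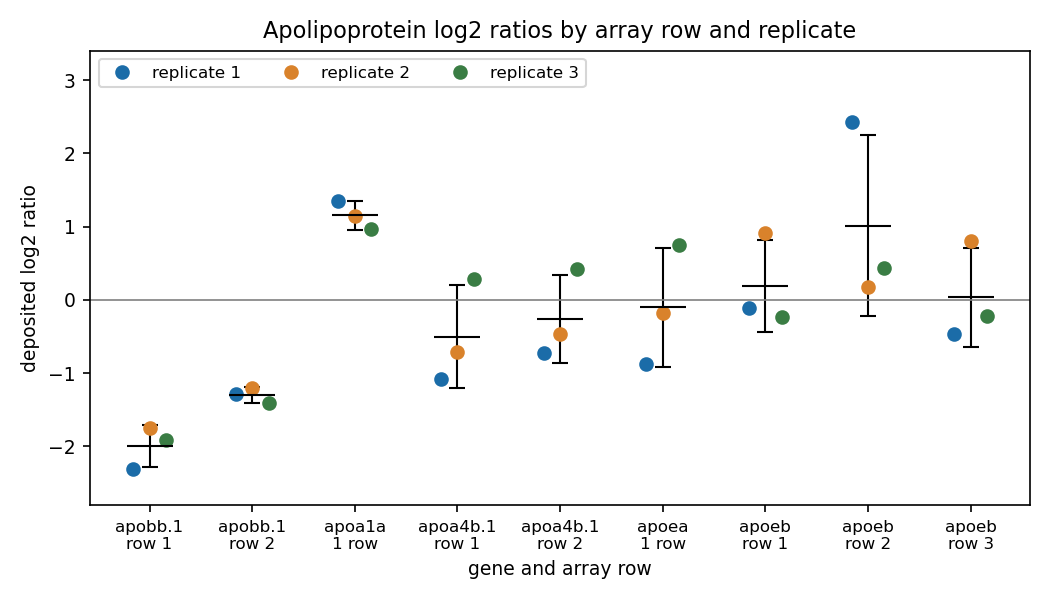
Deposited log2 ratio (vertical axis) of each measured array row of the 5 apolipoprotein genes (horizontal axis), with coloured points for replicates 1 to 3 and a black bar for the mean ± SD over them. Both apobb.1 rows lie below -1 in every replicate, the apoa1a row lies between 0.96 and 1.35, and the second apoeb row stands at 2.43 in replicate 1.

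The gene apoa4b.1 encodes an apolipoprotein of the A-IV family, which in mammals is carried on lipoproteins made by the intestine. Averaged over 2 rows, its log2 ratio was -0.91, -0.59 and 0.35 in replicates 1, 2 and 3. Replicates 1 and 2 were negative and replicate 3 positive, so the mean of -0.38 ± 0.65 (SD, n = 3) lay within the spread. Its rows went together: they read -1.08 and -0.73 in replicate 1, -0.71 and -0.47 in replicate 2, and 0.28 and 0.42 in replicate 3. With row means 0.24 apart (0.37 once the surrounding median was subtracted), the rows of apoa4b.1 differed about as much as those of other genes with 2 rows, for which the median gap was 0.22. The change of sign in replicate 3 was thus seen on both rows.

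Apolipoprotein E is the ligand through which lipoprotein particles bind receptors of the LDL receptor family, and zebrafish carry the paralogs apoea and apoeb. The single row of apoea had log2 ratios of -0.88, -0.17 and 0.74 in replicates 1, 2 and 3. These run from a 1.84-fold negative ratio to a 1.68-fold positive one. The mean was -0.10 ± 0.81 (SD, n = 3), with a smaller SD in 84.4% of genes.

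The ratio of apoeb, known in zebrafish for strong expression in the yolk syncytial layer and in microglia, was 0.61, 0.63 and -0.01 in replicates 1, 2 and 3. Its mean was 0.41 ± 0.36 (SD, n = 3). That mean joins 3 rows that are listed under the same transcript and did not go together. In replicate 1 the rows read -0.12, 2.43 and -0.47, a span of 2.89. In replicates 2 and 3 they spanned 0.73 and 0.67, against medians of 0.64 and 0.58 over the 176 genes with 3 measured rows. The row at 2.43 read 0.18 and 0.44 in the other replicates.

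By row, the means of apoeb were 0.19 ± 0.63, 1.01 ± 1.23 and 0.04 ± 0.67 (SD, n = 3 each). The range of 0.98 between these means was reached by 7.95% of genes with 3 rows. The median over the rows in place of their mean gave 0.15 for apoeb. Rows 1 and 3 of apoeb were positive in replicate 2 alone.

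The paralogs apoea and apoeb differed by -1.49, -0.80 and 0.75 (apoea minus apoeb) in replicates 1, 2 and 3. The mean difference of -0.52 ± 1.15 (SD, n = 3) was smaller than its spread and changed sign in replicate 3. The difference of apoa4b.1 minus apoeb was -1.52, -1.22 and 0.36, so these genes lay closest in replicate 3, where the sign was reversed. Against apoea, apoa4b.1 was lower by a small margin in each replicate, with differences of -0.03, -0.41 and -0.39. The last 2 comparisons were chosen after the values were seen.

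**Figure D2:**
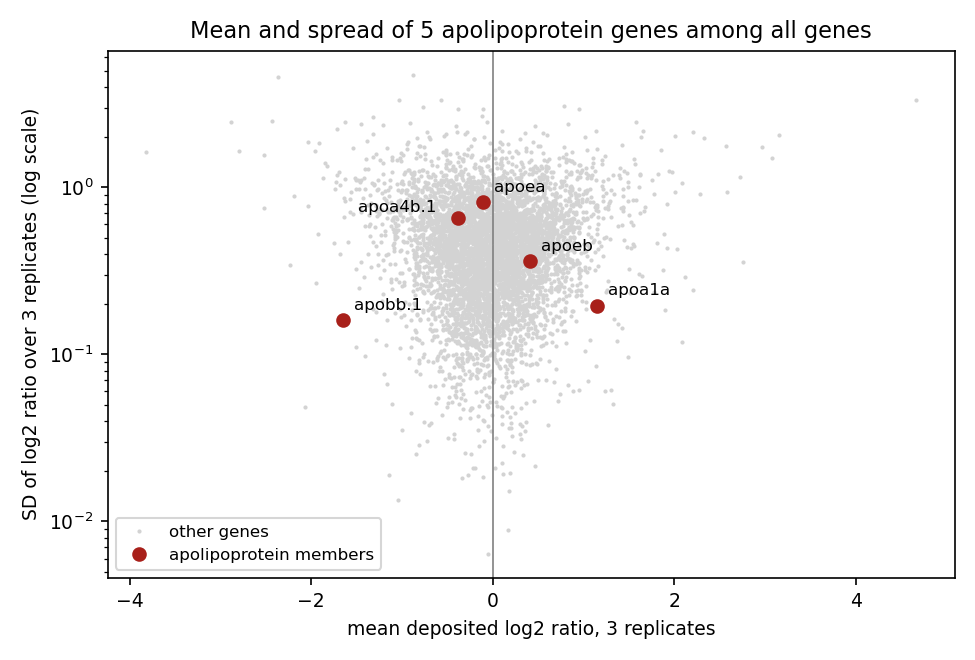
Mean deposited log2 ratio over 3 replicates (horizontal axis) against its SD on a log scale (vertical axis), for the 5 measured apolipoprotein genes in red and the other genes in grey, with cyp1a left out of the plot. The genes apobb.1 and apoa1a lie to the left and right of most genes with small SDs (0.16 and 0.20), while apoea, apoa4b.1 and apoeb lie nearer 0 with larger ones (0.36 to 0.81).

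Over the 5 measured members the median of the mean log2 ratios was -0.10, against -0.03 over all genes. By replicate the members' median was -0.88, -0.17 and 0.35, while that of all genes stayed between -0.05 and -0.01. A value in every sample was present for 9 of the members' 11 probes (81.8%), against 36.2% of all probes with a gene. The rule by which the authors left rows without a value is not given in the sources used here. The pairing of rows with genes was itself ranked on which rows had a value, so these shares are not independent of it.

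In every replicate the apobb.1 rows and apoa1a lay further from 0 than the median of the spots around them. The median log2 ratio of the surrounding spots lay between -0.37 and 0.47 for the apobb.1 rows, and between -0.11 and 0.10 for apoa1a. With that median subtracted, the apobb.1 rows had means of -1.82 and -1.52, nearer each other than before, and apoa1a one of 1.15.

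Several members are neighbours in the genome. In the order of protein-coding genes in the RefSeq annotation of GRCz12tu, apoeb lies next to apoc1, and apoa2 lies between apoc4 and apoc2 in the same run. The gene apoea lies next to apoa4a. Of these neighbours apoc2, the cofactor of lipoprotein lipase, had log2 ratios of -0.76, 0.19 and -0.80 in replicates 1, 2 and 3, a mean of -0.46 ± 0.56 (SD, n = 3). The ratios of apoa4a were -0.72, 1.81 and -0.46, a mean of 0.21 ± 1.39 (SD, n = 3). In replicate 2 apoa4a exceeded its neighbour apoea by 1.98, and in replicate 3 it was below it by a difference of -1.20. Both genes were named after their values were seen.

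The 5 genes outside the set with log2 ratios nearest to those of apobb.1, by Euclidean distance over the 3 samples, were mocs3, rsrp1, hoxa9a, tnnt3b and klf11a, at distances of 0.366 to 0.551. Their means ran from -1.94 for klf11a, a Krüppel-like transcription factor, to -1.41 for the homeobox gene hoxa9a. The mean of mocs3, an enzyme of molybdenum cofactor synthesis, was -1.48, and that of tnnt3b, a fast muscle troponin, -1.51. With 3 samples this likeness is a description of size and sign only.

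Other genes of lipoprotein and yolk lipid transport were read from the same fit. So were markers of liver, yolk syncytial layer, intestine, exocrine pancreas and macrophages. Of 254 such gene symbols listed, 175 had a probe and 77 were measured in all samples. In limma 0 of the 77 had an adjusted p under 0.05, against 0.0169% of all genes (lowest adjusted p = 0.2). At an unadjusted p under 0.05 there were 14, of which 2 were positive and 12 negative. Over all genes 16.1% (951) reached it. Counted on rounded p, which leaves out a few at the threshold, 452 had a positive and 496 a negative mean. With the ordinary statistic 0 of the 77 were called, and 0 of all genes. By that statistic 5 of the 77 had an unadjusted p under 0.05, against 605 of the 5904 genes. A positive sign in every sample was seen in 8 of the 77 and a negative one in 22, where 19.7% and 23.1% of all genes showed these signs, and the median of their means was -0.19, against -0.03 over all genes.

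Genes for the assembly and export of secretory cargo, which carry lipoproteins from the endoplasmic reticulum, had a median log2 ratio of -0.32 over 15 measured genes. In every sample 0 of these were positive and 6 negative, beside 19.7% and 23.1% of all genes, and the replicates had list medians of -0.47, -0.52 and -0.10. The members with the smallest p were the protein disulfide isomerases pdia4 (-1.09 ± 0.75) and pdia6 (-1.02 ± 0.70), and sec13, a coat protein of export vesicles (-0.85 ± 0.52; SD, n = 3 each). Their adjusted p in limma was 0.219 to 0.238, and these isomerases fold many secreted proteins besides apolipoproteins. The probe of p4hb, the isomerase that pairs with Mttp in the transfer complex, had no value.

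Among genes of lipid droplets, fatty acid binding and triglyceride synthesis, 9 of 16 kept a negative sign throughout and 1 a positive one, beside 23.1% and 19.7% of all genes. Their median was -0.38, against -0.03 over all genes. The negative count and the median include acat2 (-0.55 ± 0.23; SD, n = 3), an acetyl-CoA acetyltransferase that has none of these functions. The acyl-CoA synthetases acsl4a and acsl3b, which activate long-chain fatty acids, stood at -0.94 ± 0.41 and -0.82 ± 0.31 (SD, n = 3). The ratio of acsl4a was -1.36, -0.92 and -0.54 in replicates 1, 2 and 3, and that of acsl3b -0.85, -1.11 and -0.49. For fabp7a, a fatty acid binding protein best known from radial glia of the brain, the ratio was -0.65, -2.73 and -1.06, with a mean of -1.48 ± 1.1 (SD, n = 3). In limma their adjusted p ran from 0.206 to 0.221.

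Receptors and plasma factors were thinly measured. None of the 5 measured genes of lipoprotein receptors and uptake kept 1 sign, where 42.8% of all genes did. The high-density lipoprotein receptor scarb1, named after its values were seen, read -0.45, 4.31 and 0.86 in replicates 1, 2 and 3, with a mean of 1.57 ± 2.46 (SD, n = 3) and replicate 2 far above the others. For vldlr, a receptor for apolipoprotein E, 1 of 2 probes had a value, at 2.09 in replicate 1 and -1.07 in replicate 3. Of 4 plasma lipase and lipid exchange genes, angptl4, an inhibitor of lipoprotein lipase, was the only one with 1 sign (-1.07, -0.04 and -0.08). None of the 6 probes of the vitellogenins vtg2, vtg3, vtg4 and vtg8, the yolk precursor proteins, had a value.

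The remaining 4 apolipoprotein genes measured outside the set were apoa4a and apoc2, given above, and apooa and apool. The last 2 have apolipoprotein names but encode proteins of the mitochondrial inner membrane complex MICOS. They stood at -0.62 ± 0.55 and 0.43 ± 0.24 (SD, n = 3), negative and positive in all samples, with adjusted p of 0.341 and 0.411 in limma.

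Of 7 measured transcriptional regulators, 1 kept a positive sign and 2 a negative one, beside 19.7% and 23.1% of all genes. The nuclear receptor nr0b2a, known in mammals as SHP, a repressor in bile acid and lipid metabolism, had ratios of 2.09, 2.51 and 0.26 in replicates 1, 2 and 3. Its mean was 1.62 ± 1.19 (SD, n = 3; adjusted p = 0.2 in limma). The nuclear receptor nr5a2, known in mammals as a partner that SHP represses, had -0.28, -2.90 and -0.54, and the sterol-responsive factor srebf2 had -0.04, -1.31 and -0.19. Both were negative in all samples but large in replicate 2 alone, the replicate with the widest spread over the array. Neither hnf4a nor creb3l3a, activators of apolipoprotein genes, had a value.

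**Figure D3:**
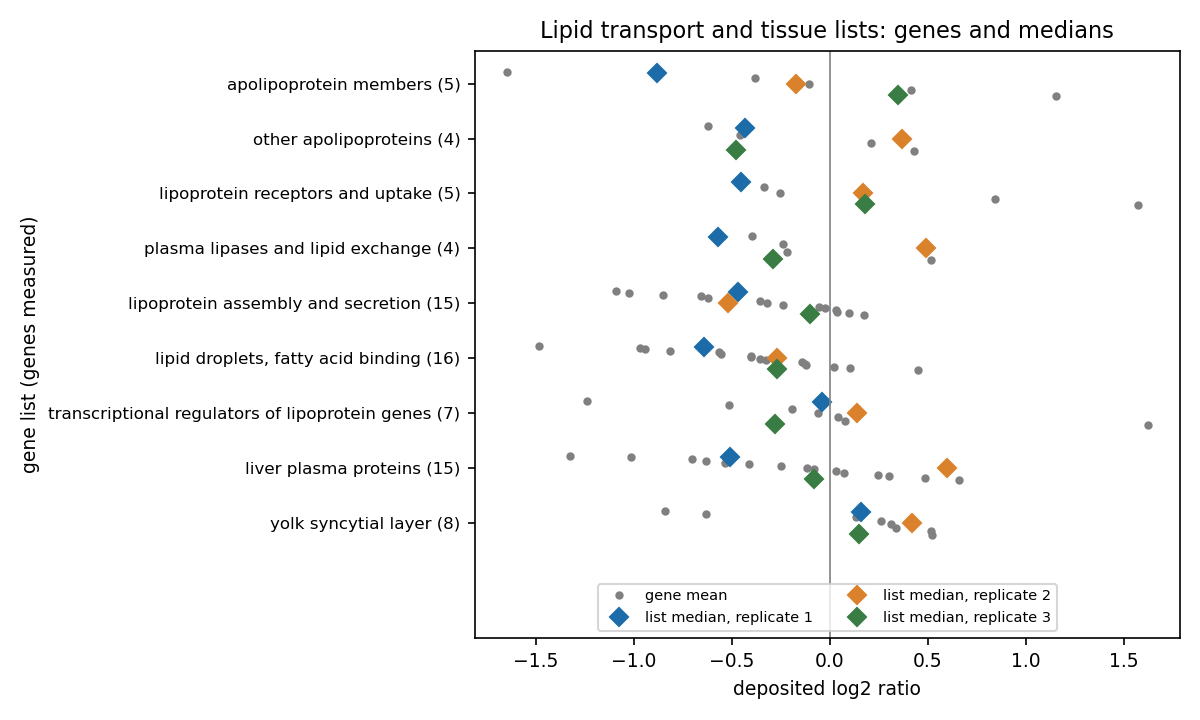
Deposited log2 ratios (horizontal axis) of the lists with at least 4 measured genes (vertical axis, number measured in parentheses): grey points are gene means over 3 replicates and diamonds the list median in each replicate. Replicate medians of the apolipoprotein members run from -0.88 to 0.35, and those of the liver plasma protein list from -0.51 to 0.60.

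Markers of the tissues that produce lipoproteins were measured in part. Genes for liver plasma proteins had a median log2 ratio of -0.12 over 15 genes, and of -0.51, 0.60 and -0.08 in replicates 1, 2 and 3. In every sample 0 of them were positive and 2 negative, beside 19.7% and 23.1% of all genes. The negative ones were rbp4, the plasma retinol carrier (-0.63 ± 0.19), and the fibrinogen chain fgg (-1.01 ± 1.06; SD, n = 3 each). The other fibrinogen chains, fga and fgb, were negative in replicates 1 and 2 and positive in replicate 3. By mean ratio, 6 of the 15 genes were positive and 9 negative. Yolk syncytial layer genes had a median of 0.29 over 8 genes, with 3 positive and 1 negative throughout, beside 19.7% and 23.1% of all genes. The negative one was the anion transporter slc26a1 (-0.84 ± 0.43), and the 2 positive ones with the smallest p were mcl1a (0.52 ± 0.38) and the iron exporter slc40a1 (0.31 ± 0.12; SD, n = 3 each). Many of these genes are used outside that layer too, and its regulators mxtx1 and mxtx2 had no value.

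For the intestine, 2 of 9 genes with a probe were measured, fabp2 at -0.97 ± 1.23 and lgals2a at 0.84 ± 0.47 (SD, n = 3 each). The 2 macrophage genes measured, lcp1 and coro1a, had a median of 0.04. They stood at -0.10 ± 0.23, with mixed sign, and at 0.18 ± 0.22, positive throughout (SD, n = 3 each). None of the 13 exocrine pancreas genes with a probe was measured in all samples. The hepatocyte marker fabp10a and the plasma carrier ttr had no value. The part of these tissues in the ratios of apobb.1 and apoa1a was not tested.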

How the data were processed

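Whole embryos were measured in 3 samples on two-channel arrays. Per the labels' protocols, the dyes Cy3 and Cy5 were put on 2 µg of total RNA per sample. The authors deposited 1 log ratio per row and sample, taken here as log2 because values reach -12.9; a natural logarithm was not excluded. Background correction, normalization, the handling of the dye swaps and the numerator are not stated there or in the series' design text. Signal depth was not known, and precision is limited by having 3 samples.

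Rows (45219, of which 10487 to 12735 had a value per sample and 10200 in all) were paired with probes by position on a grid of 266 by 170 spots. This pairing was inferred from these values. Under it, mean ratios of rows of 1 gene correlated at r = 0.76 (2169 pairs, across rows), and with the numbers as given at 0.0255 (440 pairs). Since the pairing drew on these same values, neither figure is an independent check of it. Probe names come from the platform table, and 20132 of 21060 probes had their gene ID in the RefSeq table. All gene names rest on this pairing.

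A gene's measured rows were averaged per sample, and 5904 genes with a value in all samples were fitted with limma 3.58.1 in R 4.3.3 (intercept against 0, 2-sided, Benjamini-Hochberg threshold 0.05). The fit was also run on simulated data with changes larger than the mean ratio of any measured member. That run does not show whether a change of a member's size would be called. The members, the lists and the naming rule were chosen with earlier results of these data known. The rule named all members, cyp1a, the paralog pairs, any list gene that passed, the 3 genes of each list with the smallest p among those of 1 sign, and the 5 genes nearest to apobb.1. Sequences were not used here, so a planned search of promoters for motifs was not run. Alternatives were scaling, quantile normalization, centring, averaging, missing values, array weights, the ordinary statistic, each replicate left out, position and numbering.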

Additional observations from a re-analysis of the deposited data

How the results depend on the processing

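The mean signs of apobb.1, apoa1a, apoa4b.1 and apoeb held in all 12 alternatives that kept the row pairing. Their means were -1.73 to -1.57, 1.05 to 1.25, -0.75 to -0.12 and 0.15 to 0.62. For apobb.1 and apoa1a, with 1 sign in every replicate, leaving out, weighting or scaling replicates could not change the sign. Nor could the handling of rows, or centring on sample medians that lay between -0.05 and -0.01. Those alternatives are therefore no check of it. With the surrounding median subtracted, the second apoeb row alone kept a positive mean. The ratios of apoa4b.1 and apoeb still changed sign between replicates. Settings for missing values could not move their means, as all their measured rows were complete. The median over rows could not move apoa4b.1, which had 2 rows. The mean of apoea kept its sign in 8 of 12 and ran from -0.53 to 0.28. With a single row, that mean could not move under the settings for averaging and missing values, so those are no check of it. The count of members that passed was 0, except under quantile normalization of genes and under array weights, where apobb.1 made it 1. It was 0 with quantile normalization of rows before averaging. The cause was not tested. Of the lipid transport and tissue genes 0 passed, except 1 with the row numbers as given, where 2 of the 5 measured members had a value in all samples (apoa4b.1 at 0.34) and apobb.1 had one in replicate 1 alone, at 0.62.

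Counts over the array moved more. Against 7 rows and 1 gene, scaling gave 53 rows and 35 genes, quantile normalization 52 and 46, array weights 107 and 40, and the ordinary statistic 0 and 0 (1104 and 605 at an unadjusted p under 0.05). Rows measured in at least 2 samples gave 62, quantile normalization of rows before averaging 28 genes, and the numbers as given 8 genes. With 1 replicate left out, 9 to 48 rows passed (48 without replicate 2), as did 1 to 19 genes (19 without replicate 3) and 0 members, and the members' median was -0.53 to 0.28. The position trend, the numbers as given, quantile normalization of rows, the weights for member values and the settings for apoea against apoeb were added after seeing the data. No paired analysis was possible because the samples form 1 group and the exposed and control RNA of a sample are already joined in 1 ratio.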
